A study of Mus musculus with 9 samples.

Results

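The Fanconi anemia and homologous recombination module was followed here in mouse C2C12 myoblasts. Its members are 31 named genes, found in the expression table by their symbols, out of 54307 genes in all. All 31 were found and all 31 passed the filter on low values (an FPKM, fragments scaled to transcript length and to the mapped fragments of the library, of at least 1 in at least 3 libraries). C2C12 is an immortalised mouse line of muscle precursor cells, so every library comes from 1 line, and the labels name no introduced allele. In the study, messenger RNA was sequenced after 48 h from 3 groups of 3 libraries. The control group (NC) had neither added high glucose nor drug, the high glucose group (H) was kept at 25 mmol/L glucose, and the HL group was kept at 25 mmol/L glucose with 200 nmol/L liraglutide, a drug that activates the receptor for glucagon-like peptide. How much glucose the NC medium held is not stated in the labels, no osmotic control is analysed here, and liraglutide without high glucose is not among the groups. The methods of the study speak of independent repeats in general, but the labels do not tie the libraries to separate cultures, so the p-values may measure only the spread among these libraries.

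Cells use these proteins when both DNA strands are joined by a crosslink or broken. The Fanconi anemia core complex, held on DNA by FANCM, attaches ubiquitin to FANCD2 and FANCI, after which nucleases cut the crosslink free. The broken strand is then resected, prepared by BRCA2, PALB2 and a set of paralogs, paired with the sister chromatid, and the joined intermediates are dissolved or cut. Since the sister chromatid is the template, the pathway acts mainly in S and G2 phase, and several of its genes are known to be transcribed in proliferating cells.

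The start regions of some members are shown because the module is known to include genes under cell cycle control, and some of these windows hold words that such control can use. RefSeq windows on GRCm38.p6, 300 bases long from 250 bases before to 50 bases after the start site, were present for 25 of the 31 members, in 28 windows. Both strands were searched for 4 words bound by E2F factors (TTTCCCGC, TTTGGCGC, TTTGCCGC and TTTCGCGC), for 2 forms of the cell cycle homology region (TTTGAA and TTCGAA) and for CCAAT, and no word of one set contains a word of another. An E2F word stood in 4 of 25 members (16%) and in 2.6% of the 27025 genes with a window. A cell cycle homology word stood in 4 of 25 members (16%) against 21.7% of all genes, and CCAAT in 15 of 25 (60.0%) against 41.1%. All windows with an E2F word are printed, together with that of Gen1, which had the largest fall among members with a window. They were chosen after the values were seen, capitals mark the E2F words and the cell cycle homology words, and a word is a description of the letters only.
Bard1, chr1:71102923-71103222, minus strand: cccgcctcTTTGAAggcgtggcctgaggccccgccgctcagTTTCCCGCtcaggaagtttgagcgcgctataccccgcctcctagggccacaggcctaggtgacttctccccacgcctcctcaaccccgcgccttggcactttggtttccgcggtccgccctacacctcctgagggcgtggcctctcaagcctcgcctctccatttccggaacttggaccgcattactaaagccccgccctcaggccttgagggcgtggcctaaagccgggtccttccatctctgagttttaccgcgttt
Brca2, chr5:150522371-150522670, plus strand: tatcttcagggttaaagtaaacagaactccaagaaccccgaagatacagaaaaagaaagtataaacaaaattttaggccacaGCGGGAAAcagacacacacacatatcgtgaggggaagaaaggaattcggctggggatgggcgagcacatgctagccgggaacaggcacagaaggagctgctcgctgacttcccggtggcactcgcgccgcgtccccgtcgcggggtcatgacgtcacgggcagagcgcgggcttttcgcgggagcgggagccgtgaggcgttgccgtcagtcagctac
Rad51c, chr11:87404457-87404756, minus strand: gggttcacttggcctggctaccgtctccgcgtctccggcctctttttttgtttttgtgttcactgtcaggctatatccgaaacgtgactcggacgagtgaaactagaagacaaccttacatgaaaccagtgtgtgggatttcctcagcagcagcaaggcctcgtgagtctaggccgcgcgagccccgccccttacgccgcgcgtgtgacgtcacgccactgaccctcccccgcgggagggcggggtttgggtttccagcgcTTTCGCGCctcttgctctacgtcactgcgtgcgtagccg
Rad51c, chr11:87404905-87405204, minus strand: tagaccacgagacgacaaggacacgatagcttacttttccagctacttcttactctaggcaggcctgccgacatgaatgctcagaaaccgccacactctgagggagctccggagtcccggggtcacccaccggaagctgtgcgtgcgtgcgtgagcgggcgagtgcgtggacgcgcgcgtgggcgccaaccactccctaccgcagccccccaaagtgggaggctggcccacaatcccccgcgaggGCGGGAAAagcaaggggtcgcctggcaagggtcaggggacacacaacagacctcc
Fancg, chr4:43010252-43010551, minus strand: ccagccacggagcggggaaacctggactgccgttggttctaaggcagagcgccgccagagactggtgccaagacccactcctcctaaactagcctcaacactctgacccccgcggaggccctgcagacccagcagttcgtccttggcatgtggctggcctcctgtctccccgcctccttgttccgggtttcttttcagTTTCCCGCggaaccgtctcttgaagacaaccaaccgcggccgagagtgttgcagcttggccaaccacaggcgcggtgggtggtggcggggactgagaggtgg
Gen1, chr12:11265758-11266057, minus strand: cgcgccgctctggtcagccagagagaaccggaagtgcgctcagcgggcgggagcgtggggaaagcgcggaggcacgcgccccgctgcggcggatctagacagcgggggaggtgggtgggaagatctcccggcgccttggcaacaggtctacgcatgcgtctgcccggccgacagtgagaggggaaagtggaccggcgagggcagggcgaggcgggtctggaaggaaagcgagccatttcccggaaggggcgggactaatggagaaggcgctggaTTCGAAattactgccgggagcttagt
The E2F word began at position -209 in Bard1, -168 in Brca2, -52 in Fancg and, in the windows of Rad51c, at 11 and -5. Positions are distances in bases from the start site, negative before it. In Bard1 a cell cycle homology word began at -242, and the one in Gen1 at 24. Among the 15 members called lower in H that had a window, 3 held an E2F word, and among the 10 others 1 did, Fancg. A cell cycle homology word stood in 3 of the 15 and 1 of the 10. For CCAAT the split went the other way, with 8 of the 15 (53.3%) and 7 of the 10 (70%).

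Depth was 17.4 to 23.0 M fragments a library, as recovered from the value of 1 read over single-transcript genes, where 99.4 to 99.8% of low values lay within 0.1 of a whole number. At 4000 bases of transcript 1 fragment was worth 0.0117 to 0.0154 FPKM. The lowest member value, 1.16 FPKM for Fanci in H replicate 1, would stand for about 98.2 fragments at that length. The members' own lengths were not used, and a shorter gene such as Fancf (1691 exon bases) holds fewer fragments per FPKM. FPKM totals were 757000 to 765681 in NC, 649733 to 683362 in H, then 698627 to 731929 in HL. Mitochondrially encoded transcripts took 6.48 to 7.28%, 7.24 to 9.47% and 9.19 to 11.4% of them. All 8 myoblast markers were detected, with summed levels of 440 to 454 FPKM in NC, 325 to 462 in H, then 693 to 716 in HL. Des held the largest part, with means of 253, 191 and 369 FPKM in NC, H and HL. The markers did not move alike. In the same order Myod1 averaged 18.2, 8.16 and 13.1 FPKM, and Myf5 7.32, 11.3 and 20.9. Markers of differentiated muscle summed to 10.3 to 10.6, 7.87 to 9.46 and 21.3 to 24.5 FPKM in the same order. Of 10 macrophage markers 3 reached 1 FPKM (Cd68, Csf1r and Cd14), and their list summed to 33.4 to 34.7 FPKM in NC, 171 to 248 in H, then 50.4 to 53.2 in HL. Mean levels in NC, H and HL were 0.451, 125 and 0.262 FPKM for Csf1r and 4.78, 17.6 and 19.0 for Cd68. Those of Cd14 were 27.6, 70.6 and 30.6. Ptprc, Itgam and Adgre1 were at most 0.0219, 0.0761 and 0.0594 FPKM in any library. Of 5 endothelial markers 1 reached 1 FPKM, with list sums of 0.346 to 0.475 FPKM in NC, 1.57 to 4.10 in H, then 1.11 to 1.19 in HL. Of 4 adipocyte markers 1 did, with Lep at 0 in all libraries and list sums of 8.87 to 10.3, 7.79 to 11.4 and 7.80 to 9.02 FPKM. The part of these markers in the results on the module was not tested.

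Compared with NC, most of the module was lower in H. The 31 members summed to a level that lay at 340 to 356 FPKM in the NC libraries, at 173 to 184 in those of H and at 220 to 235 in those of HL, so the groups did not overlap. The loss was uneven: Rad54b, Gen1 and Rad54l kept 14.4%, 15.3% and 17.6% of their NC mean, and Fance and Rad51d were at 86.1% and 86.9%. Rad52, Fancf and Mus81 stood above NC, at 151%, 132% and 121%, Fancf without passing the limma test (adjusted p = 0.0865). In bulk RNA, fewer cells expressing a gene and less RNA per cell cannot be told apart. By limma, with a member called when its adjusted p was under 0.05 and its log2 fold change exceeded 1 in size, 19 of 31 members were called lower in H and 0 higher, against 5.75% of the 13674 tested genes called lower and 10.3% called higher. At the adjusted p alone, 25 members were lower and 2 higher, against 33.0% and 27.1% of all tested genes, and at an unadjusted p 26 and 2 and under TPM scaling (values rescaled to a common total) 22 and 3. The median log2 fold change was -1.39 over the members and -0.04 over all tested genes. TPM scaling moved the median of all genes from -0.04 to 0.15 and the calls over all genes from 786 lower and 1402 higher to 538 and 1783, and the members' median to -1.20.

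Compared with H, part of the module was higher in HL. In that comparison 10 of 31 members were called higher and 0 lower, against 3.55% and 5.83% of tested genes. At the adjusted p alone 20 members were higher and 2 (Mus81 and Fance) lower, against 26.7% and 21.7% of tested genes, under TPM scaling these counts were 18 and 6, and at an unadjusted p 20 and 5. Medians were 0.69 for the members and 0.04 for all tested genes.

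Against NC, most members were still lower in HL. There 5 members were called lower and 0 higher, against 2.41% and 6.30% of tested genes, and at the adjusted p alone 24 were lower and 1 (Rad52) higher, against 27.2% and 21.6%, with the same counts at an unadjusted p and 20 and 1 under TPM scaling. The members' median was -0.63 and that of all genes -0.04. Each group enters 2 of the 3 comparisons, which are therefore not independent of each other.

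**Figure D1:**
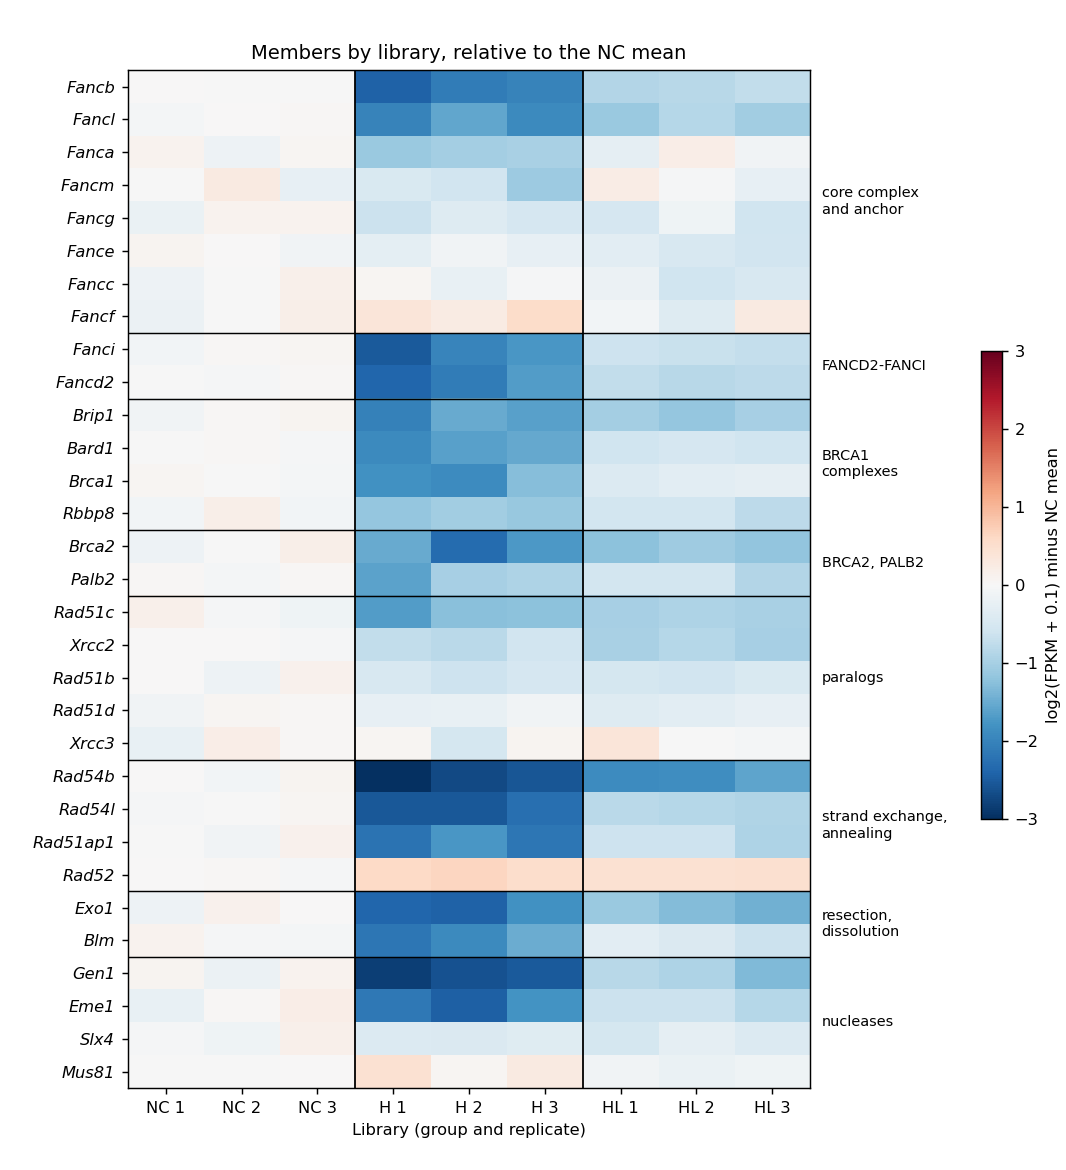
Log2(FPKM + 0.1) of each member (rows, by functional class) in each of the 9 libraries (columns), minus the mean of the 3 NC libraries; blue is lower and red higher than NC. Most rows are darkest in the 3 H libraries and paler in HL, Rad52 is above NC in all H and HL libraries, and Fancf and Mus81 are above NC in the 3 H libraries.

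**Figure D2:**
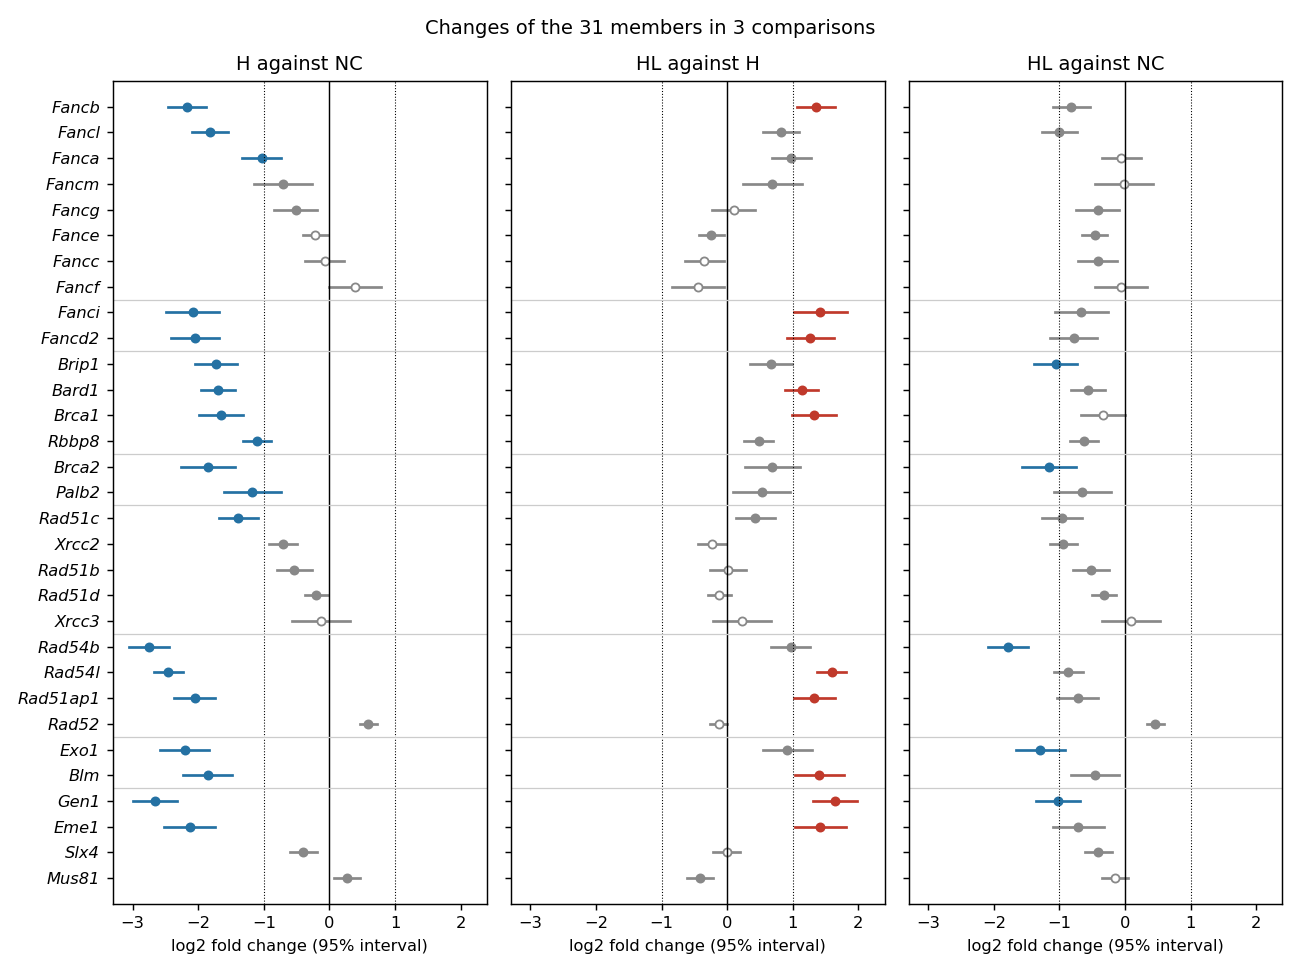
Log2 fold change of each member with its 95% interval from limma in 3 comparisons; colour marks members called lower (blue) or higher (red), grey those not called, and open points those that missed the adjusted p. Dotted lines mark the fold threshold of 1. The 19 blue points of H against NC lie between -2.75 and -1.03, and the 10 red points of HL against H between 1.14 and 1.64.

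The core complex was uneven. In H 3 of its 8 genes were called lower (Fancb, Fancl and Fanca), and in HL 1 (Fancb) was called higher than in H. The 3 NC libraries gave 6.81, 6.68 and 6.65 FPKM for Fancb, those of H 1.17, 1.495 and 1.61 and those of HL 3.60, 3.74 and 3.98. FANCB forms, with FANCL, the catalytic part of the complex. Compared with NC, Fancb fell by 2.17 on the log2 scale in H (SE 0.13, adjusted p = 1.17e-06). All HL libraries lay between the other groups. For Fancb, HL differed from H by 1.36 on the log2 scale (SE 0.13, adjusted p = 4.67e-05). That call was lost with a pseudocount of 1 (0.98). Fancl stood at 15.96, 17.0 and 17.3 FPKM in NC, at 4.12, 5.61 and 4.40 in H and at 7.74, 9.21 and 8.10 in HL. FANCL is the ubiquitin ligase itself. H against NC gave Fancl a log2 fold change of -1.82 (SE 0.12, adjusted p = 2.13e-06). In HL it was higher than in H by 0.82 (adjusted p = 0.000523) and lower than in NC by just under the fold threshold (-0.999, adjusted p = 0.000184), which it passed without NC replicate 1 (-1.03) or HL replicate 2 (-1.07). Annotated exons of Fancl (GENCODE M21) share 13.7% of their bases with the opposite-strand gene Vrk2, which also fell in H (log2 fold change -0.997, adjusted p = 2.86e-05); whether reads were counted by strand is not given in the sources used here.

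Fanca, a scaffold of the complex, averaged 5.57 ± 0.55 FPKM in NC, 2.66 ± 0.14 in H and 5.39 ± 0.90 in HL (SD, n = 3). It was called lower in H (-1.03, adjusted p = 0.00014), but stood so near the fold threshold that the call was lost with a pseudocount of 1 (-0.84), under TPM scaling (-0.85) and without NC replicate 1 (-0.98) or H replicate 1 (-0.99). From H to HL it rose by 0.98 (adjusted p = 0.000368), and past the threshold without H replicate 3 (1.01), HL replicate 1 (1.08) or HL replicate 3 (1.0001). HL and NC overlapped (-0.06, interval -0.36 to 0.25). Exons of Fanca share 10.5% of their bases with Zfp276 on the opposite strand, which did not pass in H against NC (0.05, adjusted p = 0.834). The anchor Fancm showed a like order at lower precision, with 5.80 ± 1.05, 3.54 ± 0.79 and 5.72 ± 0.94 FPKM, and differences of -0.71 for H against NC (adjusted p = 0.0119) and 0.69 for HL against H (adjusted p = 0.0176).

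The remaining core genes were not called in any comparison. Fance, the most abundant of them and the subunit that contacts FANCD2, measured 23.7, 22.6 and 21.0 FPKM in NC, 18.3, 20.7 and 19.0 in H and 17.9, 16.02 and 15.1 in HL. Its H libraries lay below every NC library, yet the difference missed the threshold (-0.22, SE 0.08, adjusted p = 0.0501), and HL was below both H (-0.24, adjusted p = 0.0371) and NC (-0.46, SE 0.08, adjusted p = 0.00181). Fancg averaged 7.35 ± 0.89 FPKM in NC, 5.11 ± 0.46 in H and 5.52 ± 1.02 in HL, a change of -0.51 in H (adjusted p = 0.0131) that did not pass under TPM scaling (-0.32, adjusted p = 0.0789). Fancc, with 7.99 ± 0.86, 7.60 ± 0.75 and 5.98 ± 0.97 FPKM, did not pass the test in H (-0.07, adjusted p = 0.664) and was lower in HL than in NC (-0.42, adjusted p = 0.0278), though not under TPM scaling (adjusted p = 0.0895), where HL against H passed instead (-0.44, adjusted p = 0.029). Fancf, a low adaptor subunit with 2.99 ± 0.37, 3.94 ± 0.42 and 2.90 ± 0.69 FPKM, passed in no comparison on the FPKM scale (0.39 in H against NC, adjusted p = 0.0865), but under TPM scaling it passed in H against NC (0.58, adjusted p = 0.0242) and in HL against H (-0.55, adjusted p = 0.0396). Fancf shares 15.0% of its exon bases with Gas2 on the opposite strand, which was lower in H by limma (-0.44, adjusted p = 0.00634). Fancc shares 16.4% with Gm16133, also on the opposite strand, at 0.393 FPKM in NC, 0.530 in H and 0.111 in HL. Fancc and Fancf are subunits of the same complex as Fancb, so within 1 complex the log2 fold changes in H ran from -2.17 to 0.39.

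FANCD2 and FANCI are the pair of proteins to which the core complex attaches ubiquitin. Both genes were called lower in H and higher in HL. Fancd2 measured 7.95, 7.81 and 8.19 FPKM in the 3 NC libraries, 1.46, 1.79 and 2.43 in H and 4.76, 4.41 and 4.62 in HL. The 3 NC libraries gave 6.74, 7.34 and 7.41 FPKM for Fanci, those of H 1.16, 1.73 and 2.07 and those of HL 4.65, 4.46 and 4.30. In both genes the 3 groups were separate, and H replicate 1 was the lowest library and H replicate 3 the highest of the H group. Compared with NC, Fancd2 fell by 2.05 on the log2 scale in H (SE 0.16, adjusted p = 5.7e-06). For Fanci, H differed from NC by -2.09 on the log2 scale (SE 0.18, adjusted p = 1.04e-05). The ratio of Fancd2 to Fanci averaged 1.12 in NC, 1.16 in H and 1.03 in HL. HL against H gave Fancd2 a log2 fold change of 1.27 (SE 0.16, adjusted p = 0.000228). Compared with H, Fanci rose by 1.42 on the log2 scale in HL (SE 0.18, adjusted p = 0.000229). The call of Fancd2 was lost with a pseudocount of 1 (0.97). In HL, Fancd2 remained below NC by less than the fold threshold (-0.78, SE 0.16, adjusted p = 0.00326), as did Fanci (-0.67, adjusted p = 0.0126). The exons of Fanci share 15.95% of their bases with Polg on the opposite strand, which averaged 17.8, 19.8 and 17.2 FPKM in NC, H and HL.

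All 4 genes of the BRCA1 complexes were called lower in H, and Brca1 and Bard1 were called higher in HL than in H. BRCA1 and BARD1 form a ubiquitin ligase together. Brca1 stood at 12.8, 12.05 and 11.8 FPKM in NC, at 3.41, 3.20 and 5.01 in H and at 9.22, 9.77 and 10.1 in HL. Bard1 measured 6.99, 7.27 and 6.87 FPKM in the 3 NC libraries, 1.79, 2.20 and 2.35 in H and 4.64, 4.94 and 4.64 in HL. NC, H and HL were separate for both genes, with HL nearer to NC for Brca1. By limma Brca1 fell by 1.66 on the log2 scale in H (SE 0.15, adjusted p = 1.38e-05). For Bard1, H differed from NC by -1.70 on the log2 scale (SE 0.11, adjusted p = 2.33e-06). HL against H gave Brca1 a log2 fold change of 1.33 (SE 0.15, adjusted p = 0.000118). Compared with H, Bard1 rose by 1.14 on the log2 scale in HL (SE 0.11, adjusted p = 6.14e-05). With a pseudocount of 1 the call of Bard1 was lost (0.89). Between HL and NC, Brca1 missed the test (-0.33, interval -0.66 to 0.01, adjusted p = 0.0952) although no library overlapped, and Bard1 was lower (-0.56, adjusted p = 0.00304). The ratio of Brca1 to Bard1 averaged 1.73, 1.83 and 2.05 in NC, H and HL.

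Brip1, whose product is a helicase bound by BRCA1, was called lower than NC in both H and HL. The 3 NC libraries gave 6.32, 6.99 and 7.21 FPKM for Brip1, those of H 1.59, 2.32 and 2.14 and those of HL 3.31, 3.01 and 3.37. The HL libraries sat well below NC and above H. For Brip1, H differed from NC by -1.73 on the log2 scale (SE 0.14, adjusted p = 8.94e-06). HL exceeded H by 0.67 (adjusted p = 0.00456), short of the fold threshold. HL against NC gave Brip1 a log2 fold change of -1.06 (SE 0.14, adjusted p = 0.000373). That last call was lost with a pseudocount of 1 (-0.89) and under TPM scaling (-0.97). Rbbp8, encoding CtIP, which starts resection, had the highest NC mean of the module, 25.0 ± 2.6 FPKM, against 11.5 ± 0.5 in H and 16.2 ± 1.6 in HL. It was called lower in H (-1.11, adjusted p = 1.14e-05) except under TPM scaling (-0.92), and was higher in HL than in H by 0.48 (adjusted p = 0.0031).

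BRCA2, which acts on resected ends, and its partner PALB2 were called lower in H, and neither was called higher in HL. Brca2 stood at 13.6, 14.9 and 17.0 FPKM in NC, at 5.23, 2.97 and 4.51 in H and at 6.38, 7.203 and 6.57 in HL. H and HL did not overlap, but HL reached less of the NC level than in Brca1. Compared with NC, Brca2 fell by 1.85 on the log2 scale in H (SE 0.18, adjusted p = 2.63e-05). For Brca2, HL differed from H by 0.69 on the log2 scale (SE 0.18, adjusted p = 0.0128). HL against NC gave Brca2 a log2 fold change of -1.16 (SE 0.18, adjusted p = 0.00083). Means in HL were 44.2% of NC for Brca2 and 79.5% for Brca1; the difference between the genes was not tested. Palb2 averaged 3.93 ± 0.17 FPKM in NC, 1.72 ± 0.44 in H and 2.48 ± 0.33 in HL. Its call in H (-1.18, adjusted p = 0.000613) was lost with a pseudocount of 1 (-0.87) and without H replicate 1 (-0.96), and HL was above H by 0.52 (adjusted p = 0.0486), which did not pass under TPM scaling (0.44, adjusted p = 0.109).

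Of the 5 paralogs Rad51b, Rad51c, Rad51d, Xrcc2 and Xrcc3, whose proteins work together in small complexes during recombination, 1 was called lower in H. This was Rad51c, with 10.1, 8.91 and 8.34 FPKM in NC, 2.78, 3.78 and 3.80 in H and 4.53, 4.76 and 4.61 in HL. Every H and HL library was below every NC library. Its log2 fold change was -1.39 in H against NC (adjusted p = 2.08e-05), 0.43 in HL against H (adjusted p = 0.0247) and -0.96 in HL against NC (adjusted p = 0.000406), the last past the fold threshold without NC replicate 3 (-1.02). HL against H did not pass under TPM scaling (0.34, adjusted p = 0.0811). Xrcc2 averaged 7.60 ± 0.15 FPKM in NC, 4.62 ± 0.40 in H and 3.91 ± 0.22 in HL. Its change in H (-0.71, adjusted p = 0.000145) stood beside a lower level in HL (-0.94 against NC, adjusted p = 6.56e-05), and HL against H did not pass (-0.23, adjusted p = 0.064) except under TPM scaling (-0.33, adjusted p = 0.0229). Rad51b, with 3.38 ± 0.34, 2.30 ± 0.14 and 2.32 ± 0.09 FPKM, likewise differed from NC in H (-0.53, adjusted p = 0.00394) and HL (-0.52, adjusted p = 0.00626) while H and HL did not pass (0.01, interval -0.26 to 0.28). Its difference in H was -0.35 under TPM scaling (adjusted p = 0.0375).

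The most abundant paralog in every group, Rad51d, measured 10.5, 11.7 and 11.5 FPKM in NC, 9.38, 9.58 and 10.4 in H and 8.54, 8.94 and 9.50 in HL. H and NC did not overlap and H and HL did. Its difference was -0.20 in H against NC (SE 0.08, adjusted p = 0.05 after rounding, just under the threshold), -0.12 in HL against H (SE 0.08, adjusted p = 0.238) and -0.32 in HL against NC (SE 0.08, adjusted p = 0.00839). Under TPM scaling the value in H against NC was -0.0094 (adjusted p = 0.934) and that in HL against NC -0.22 (adjusted p = 0.0607), and with median centring the adjusted p in H against NC was 0.0624, so neither pass held under every scaling. Xrcc3, with 5.26 ± 0.81, 4.86 ± 1.11 and 5.64 ± 0.98 FPKM, overlapped in all comparisons and passed in none (-0.13 in H against NC, adjusted p = 0.593).

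The factors of strand exchange and annealing held the largest fall (Rad54b) and the largest rise (Rad52) of the module in H against NC. RAD54L and RAD54B are motor proteins that drive strand exchange, RAD51AP1 stimulates it, and RAD52 anneals single strands. Rad54b measured 14.6, 13.6 and 15.2 FPKM in the 3 NC libraries, 1.74, 2.14 and 2.38 in H and 3.81, 3.92 and 4.75 in HL. The 3 NC libraries gave 11.1, 11.2 and 11.8 FPKM for Rad54l, those of H 1.86, 1.87 and 2.28 and those of HL 6.41, 6.20 and 6.02. In HL, Rad54l stood at 54.5% of its NC mean and Rad54b at 28.7%, a difference between genes that was not tested. Compared with NC, Rad54b fell by 2.75 on the log2 scale in H (SE 0.13, adjusted p = 4.16e-07). For Rad54l, H differed from NC by -2.46 on the log2 scale (SE 0.10, adjusted p = 1.86e-07). HL against H gave Rad54l a log2 fold change of 1.59 (SE 0.10, adjusted p = 5.56e-06). From H to HL, Rad54b rose by 0.97 (adjusted p = 0.000379), past the fold threshold without H replicate 3 (1.06), HL replicate 1 (1.03) or HL replicate 2 (1.01). Compared with NC, Rad54b fell by 1.78 on the log2 scale in HL (SE 0.13, adjusted p = 1.8e-05). In HL, Rad54l differed from NC by -0.86 (adjusted p = 0.000142). Rad54b shares 35.8% of its exon bases with Fsbp on the same strand, itself at 0.390 FPKM in NC, 0.147 in H and 0.151 in HL. Rad54l shares 15.4% with Lrrc41 on the opposite strand, which was higher in H (0.41, adjusted p = 0.00595).

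Rad51ap1 stood at 18.8, 17.8 and 20.8 FPKM in NC, at 4.005, 5.59 and 4.16 in H and at 12.3, 12.5 and 10.01 in HL. The groups were separate. For Rad51ap1, H differed from NC by -2.05 on the log2 scale (SE 0.14, adjusted p = 2.58e-06). HL against H gave Rad51ap1 a log2 fold change of 1.33 (SE 0.14, adjusted p = 8.07e-05). Rad52 went the other way. Rad52 measured 10.7, 10.8 and 10.4 FPKM in the 3 NC libraries, 16.1, 16.5 and 15.4 in H and 14.5, 14.5 and 14.9 in HL. Every H and HL library exceeded every NC library. The difference was 0.59 in H (SE 0.06, adjusted p = 2.5e-05) and 0.46 in HL (adjusted p = 0.000246), below the fold threshold in both, and H and HL did not pass (-0.13, interval -0.26 to 0.00, adjusted p = 0.096), except under TPM scaling (-0.23, adjusted p = 0.0163). Within libraries the ratio of Rad52 to Rad54l ran from 0.876 to 0.961 in NC, from 6.77 to 8.82 in H, then from 2.27 to 2.47 in HL, and that of Rad52 to Brca2 from 0.608 to 0.782, from 3.08 to 5.56 and from 2.02 to 2.28.

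**Figure D3:**
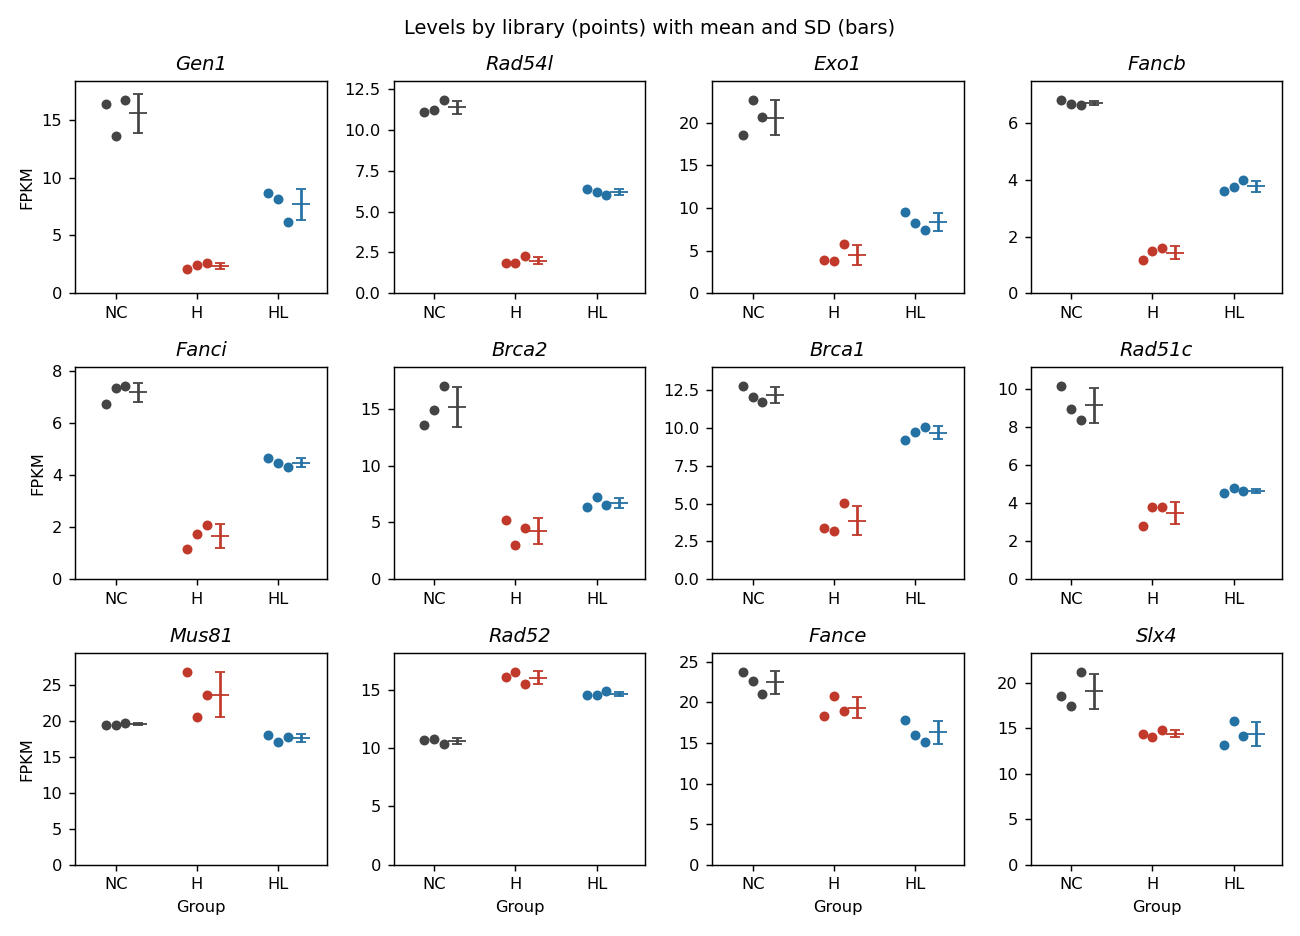
FPKM of 12 members in each library (points) with the group mean and SD (bars beside them, n = 3), on axes that start at 0. Gen1, Rad54l, Exo1, Fancb, Fanci, Brca2, Brca1 and Rad51c are lowest in H with HL between the groups, Rad52 is higher in H and HL than in NC, and Mus81, Fance and Slx4 differ less.

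EXO1 lengthens the resected end and BLM is a helicase that acts in resection and in dissolving joined strands. Both genes were called lower in H. The 3 NC libraries gave 18.5, 22.6 and 20.7 FPKM for Exo1, those of H 3.86, 3.74 and 5.78 and those of HL 9.50, 8.23 and 7.43. Blm stood at 11.2, 10.1 and 10.01 FPKM in NC, at 2.23, 2.71 and 3.64 in H and at 8.42, 7.74 and 6.64 in HL. Groups were separate for both. Compared with NC, Exo1 fell by 2.21 on the log2 scale in H (SE 0.17, adjusted p = 4.98e-06). For Blm, H differed from NC by -1.86 on the log2 scale (SE 0.17, adjusted p = 1.32e-05). HL against H gave Blm a log2 fold change of 1.40 (SE 0.17, adjusted p = 0.000161). Exo1 rose in HL by 0.92 (adjusted p = 0.00191), and past the fold threshold without H replicate 3 (1.12) or HL replicate 3 (1.001). Compared with NC, Exo1 fell by 1.29 on the log2 scale in HL (SE 0.17, adjusted p = 0.000292). In HL against NC, Blm was lower by less (-0.46, adjusted p = 0.045), which did not pass under TPM scaling (-0.36, adjusted p = 0.125).

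The nucleases that cut joined strands did not move together. GEN1 resolves Holliday junctions on its own, MUS81 cuts with EME1 as its partner, and SLX4 is the scaffold to which MUS81-EME1 binds. Gen1 measured 16.4, 13.6 and 16.7 FPKM in the 3 NC libraries, 2.09, 2.43 and 2.61 in H and 8.71, 8.17 and 6.17 in HL. The 3 NC libraries gave 8.53, 10.2 and 11.4 FPKM for Eme1, those of H 2.17, 1.75 and 2.82 and those of HL 6.38, 6.35 and 5.48. In both genes H fell below all other libraries and HL lay between. For Gen1, H differed from NC by -2.66 on the log2 scale (SE 0.15, adjusted p = 8.48e-07). H against NC gave Eme1 a log2 fold change of -2.13 (SE 0.17, adjusted p = 7.63e-06). The rise in HL was the largest of the module in Gen1. Compared with H, Gen1 rose by 1.64 on the log2 scale in HL (SE 0.15, adjusted p = 3.55e-05). For Eme1, HL differed from H by 1.42 on the log2 scale (SE 0.17, adjusted p = 0.000195). HL against NC gave Gen1 a log2 fold change of -1.02 (SE 0.15, adjusted p = 0.000515). This call was lost with a pseudocount of 1 (-0.94), under TPM scaling (-0.92), and without NC replicate 1 (-0.98), NC replicate 3 (-0.96) or HL replicate 3 (-0.87). Eme1 was lower than NC by a smaller margin (-0.71, adjusted p = 0.00818).

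Mus81 stood at 19.4, 19.4 and 19.7 FPKM in NC, at 26.8, 20.5 and 23.6 in H and at 18.01, 17.0 and 17.7 in HL. The H values were the highest and the most spread. Mus81 was higher in H than in NC by 0.27 (adjusted p = 0.0286; 0.46 under TPM scaling) and lower in HL than in H (-0.42, adjusted p = 0.00459), without a call. Slx4, with 19.0 ± 1.9, 14.4 ± 0.4 and 14.4 ± 1.3 FPKM, was lower than NC in H (-0.40, adjusted p = 0.00431) and HL (-0.40, adjusted p = 0.00554), and H and HL overlapped (-0.01, interval -0.21 to 0.20). Under TPM scaling its difference in H against NC was -0.20 and did not pass (adjusted p = 0.0694). The ratio of Mus81 to its partner Eme1 was 1.72 to 2.28 in NC, 8.36 to 12.3 in H, then 2.68 to 3.23 in HL, so the 3 groups did not overlap. MUS81 has another partner, EME2, whose gene is not a member and is described here after its values were seen. Eme2 averaged 7.44 ± 0.56 FPKM in NC, 16.2 ± 1.5 in H and 8.28 ± 0.05 in HL, called higher in H (1.11, adjusted p = 6.21e-06). Its exons share 28.2% of their bases with Spsb3 (opposite strand, 0.41 higher in H, adjusted p = 0.00403) and 25.95% with Mapk8ip3 (same strand, 0.10, adjusted p = 0.325).

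Among 52 other genes of the same pathways, 15 were called lower in H and 1, Eme2, higher, against 5.75% and 10.3% of all tested genes. At the adjusted p alone 36 were lower and 2 higher, against 33% and 27.1% of all tested genes, and the median was -0.51. Fignl1, a recombination factor, changed by -2.13 in H against NC and 1.37 in HL against H. Polq, the polymerase of a separate end-joining route, changed by -1.79 and 1.33. Rmi2, a partner of BLM, changed by -2.01 and 0.62, the last without passing (adjusted p = 0.159). It averaged 1.44 FPKM in NC, 0.294 in H and 0.496 in HL. Rmi2 thus passed the filter on low values only through NC, where it is high. Its differences from NC are descriptions only, although the counts of genes lower than NC include it. In HL against H 2 of the 52 were called higher (Fignl1 and Polq) and 0 lower, a share near the 3.55% of all tested genes called higher. At the adjusted p alone 28 were higher and 6 lower, against 26.7% and 21.7% of all tested genes, and the median was 0.26. In HL against NC 2 were called lower (Rmi2, a description only, and Dna2) and 0 higher, against 2.41% and 6.30% of all tested genes. The count called lower is near the share of all tested genes. At the adjusted p alone 31 were lower and 2 higher, against 27.2% and 21.6% of all tested genes, and the median was -0.35.

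Genes of other repair routes were counted in the same way, against the same shares of all tested genes (5.75% lower and 10.3% higher in H against NC, 5.83% and 3.55% in HL against H, 2.41% and 6.30% in HL against NC). At the adjusted p alone these shares were 33% lower and 27.1% higher in H against NC. In HL against H they were 21.7% and 26.7%, and in HL against NC 27.2% and 21.6%. Of 12 end-joining genes 1 (Xrcc6, -1.06) was called lower in H, and the median was -0.12. In each direction 4 passed the adjusted p, near the shares of all tested genes. None was called in HL against H or HL against NC, where 2 and 4 were lower and 4 and 3 higher at the adjusted p alone, with medians of 0.15 and -0.01. Of 25 genes of excision and mismatch repair 4 were called lower in H (Parp1, Mutyh, Ung and Neil3, -1.06 to -2.36) and 0 higher (14 and 3 at the adjusted p alone), with a median of -0.30. In HL against H 1 was called higher (Neil3, 1.62) and 1 lower (Msh3, -1.21), 11 and 4 at the adjusted p alone, with a median of 0.06, and in HL against NC 2 were lower (Ung and Pms2) and 0 higher, 11 and 2 at the adjusted p alone, with a median of -0.25.

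Genes of the cell cycle moved beside the module. Of all tested genes, 5.75% were called lower in H against NC, 3.55% higher in HL against H and 2.41% lower in HL against NC. At the adjusted p alone these shares were 33%, 26.7% and 27.2%. Of 26 S phase genes 22 were called lower in H (median -1.75), 4 higher in HL than in H (0.78) and 14 lower in HL than in NC (-1.06), and at the adjusted p alone 25, 23 and 26 went these ways. Of 20 genes of G2 and M phase all 20 were called lower in H (median -1.91), all 20 higher in HL than in H (1.37), and 0 in HL against NC (-0.51), where 17 were lower at the adjusted p alone. Summed S phase levels were 1851 to 1859 FPKM in NC, 625 to 753 in H, then 874 to 888 in HL, and those of G2 and M phase 1832 to 1870, 451 to 596 and 1282 to 1311. Within H the lists did not order the libraries alike. Replicates 1, 2 and 3 had G2 and M phase sums of 451, 548 and 596 FPKM, S phase sums of 753, 625 and 726, and member sums of 174, 173 and 184. Of the 31 members, 18, 11 and 2 were lowest in these libraries. A large part of the S phase sums in H came from Pcna, which averaged 239 FPKM in NC, 233 in H (SD 42.9) and 127 in HL. By limma Pcna did not pass in H against NC (-0.05, adjusted p = 0.705) and was lower in HL than in H (-0.86, adjusted p = 0.000306). The S phase sums, and their order within H, were not computed without Pcna. Of 14 genes for E2F factors, their partners and the p53 arm, 6 were called lower in H and 1 higher, 2 higher in HL than in H, and 2 lower and 1 higher in HL than in NC. Of all tested genes 10.3% were called higher in H against NC and 6.3% in HL against NC. The counts of 1 higher were below or near these shares. Mybl2, a cell cycle transcription factor, averaged 16.9 FPKM in NC, 3.73 in H and 7.44 in HL, and Cdkn1a, the p21 inhibitor of cyclin-dependent kinases, 129, 304 and 295. The part of the cell cycle genes in the changes of the module was not tested.

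**Figure D4:**
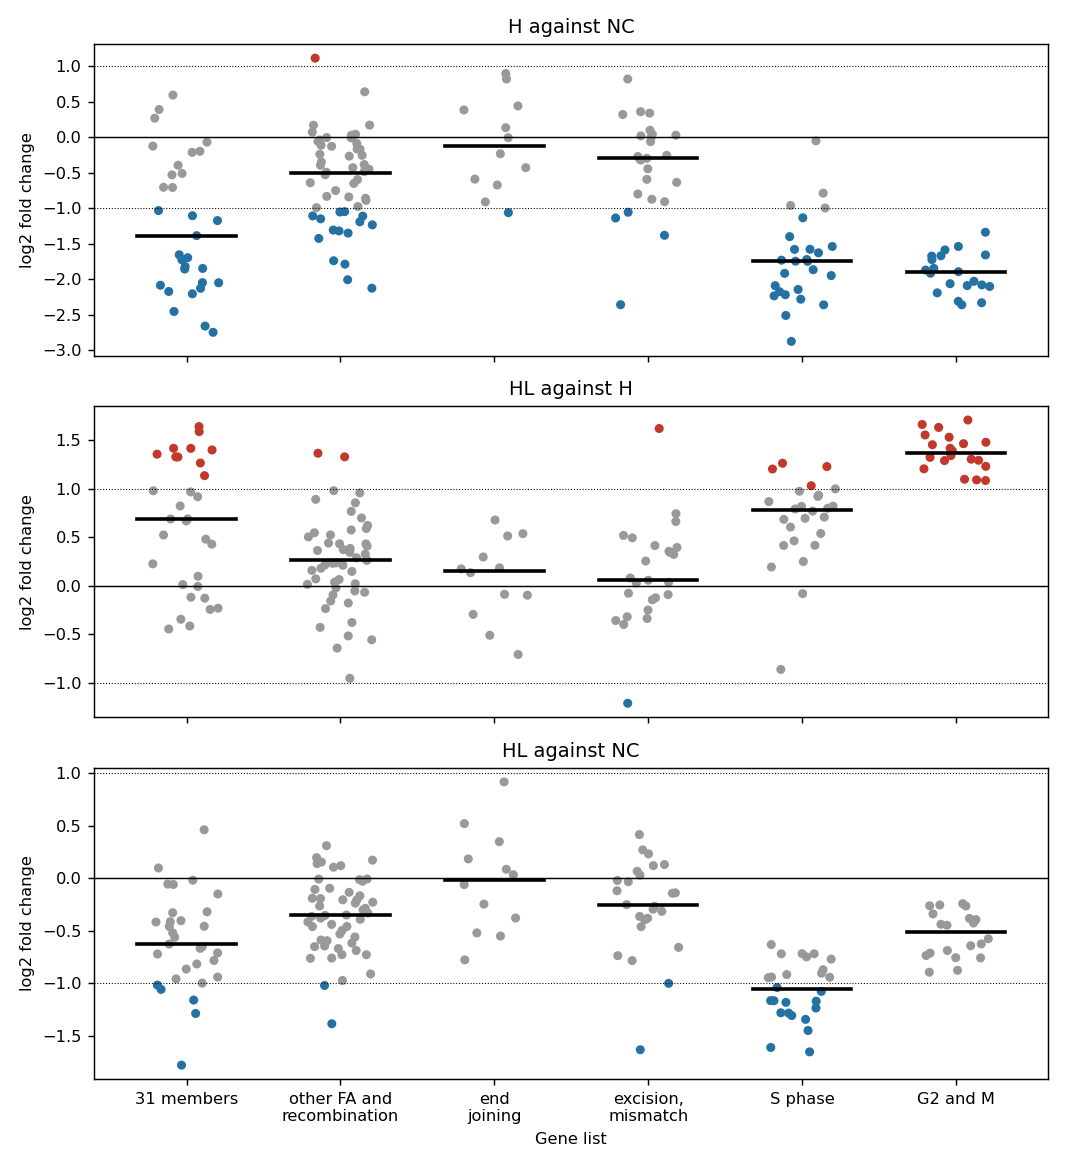
Log2 fold changes (vertical axis) of the 31 members and 5 other gene lists in the 3 comparisons; each point is a gene, blue called lower, red called higher, and the black bar is the median of the list. In H against NC the medians are -1.39 for the members, -1.75 for S phase and -1.91 for G2 and M phase genes, and -0.12 for end joining.

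The median SD of log2 values over the members was 0.10 in NC, 0.22 in H and 0.12 in HL, against 0.07, 0.17 and 0.09 over all tested genes. By mean level, 16 members reached 10 FPKM in NC, 5 in H and 6 in HL, and the top of the order changed from Rbbp8 (25.0 FPKM) in NC to Mus81 (23.6 FPKM) in H. In HL Mus81 again stood first with 17.6 FPKM.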

How the data were processed

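The 31 members, the functional classes and the comparison lists were chosen with earlier results of these data known. 1 item of the comparison lists is not reported here. The deposited values are FPKM per gene and library, made by the authors after trimming. The submitters' processing notes name HISAT2 (2.1.0), StringTie (1.3.3b) and the build mm39, the methods text of the study names another genome and the table another quantifier, so the pipeline is not settled, and no coordinates of measured genes are given. The authors compared groups with DESeq2 on counts that are not used here. FPKM are not counts, and members have several transcripts, so no count test was run. Symbols for 51482 of 54307 gene identifiers came from GENCODE M21. Exon overlaps were taken from that annotation and start windows from RefSeq, both on GRCm38, and serve as descriptions.

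The 13674 genes that reached 1 FPKM in 3 or more libraries were fitted as log2(FPKM + 0.1) with limma 3.58.1 (R 4.3.3 and statmod 1.5.0), using its trend and robust options, over all 9 libraries without covariates (6 residual degrees of freedom), after a test on simulated data. The pseudocount makes the fold changes of low genes smaller than their ratios. P-values were two-sided and adjusted by the Benjamini-Hochberg method over all tested genes in each comparison. A member was called where the adjusted p was under 0.05 and the log2 fold change exceeded 1 in size. Python 3.11.15 with pandas 2.3.3 and matplotlib 3.10.9 made tables and plots. Full statistics were given, in each comparison, to the called members with the largest changes (at most 4 per class and 14 in all), to members called in HL against NC and to the most abundant member of a class without a call, and lists name at most 4 called genes. Genes outside these rules, such as single members of a list that were called, are named after their values were seen. Results were recomputed with other pseudocounts (1 and 0.01), without the filter or with one on the mean (5 FPKM), with TPM scaling or median centring, with limma's robust option off or group variance weights on, with each pair of groups fitted alone, with a replicate block, with the adjusted p alone, and with each library left out.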

Additional observations from a re-analysis of the deposited data

How the results depend on the processing

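No count or median of the members, and no call of a member given full statistics, changed direction under any alternative run. The median of all tested genes, close to 0, did change sign under TPM scaling: to 0.15 in H against NC, -0.06 in HL against H and 0.05 in HL against NC, and without the filter to 0.08 and -0.05 in the first pair of comparisons. Members called lower in H against NC numbered 19, 12 where a mean of 5 FPKM was required (which left out 7 called members), and 17 to 19 without single libraries. At the adjusted p alone 2 were higher. Their median of -1.39 was -1.19 with a pseudocount of 1, -1.25 with the mean filter, -1.20 under TPM scaling and -1.46 to -1.24 without single libraries, the weakest without H replicate 1. In HL against H the 10 members called higher were 6 with the mean filter, 20 at the adjusted p alone and 10 to 13 without single libraries, with 2 lower at the adjusted p alone, and the median of 0.69 was 0.57 with a pseudocount of 1 and 0.58 with the mean filter. In that comparison a pseudocount of 1 lost the calls of Fancb, Fancd2 and Bard1, and one of 0.01 added a call of Fanca. In HL against NC the 5 called lower were 3 with a pseudocount of 1, 3 under TPM scaling, 24 at the adjusted p alone and 4 to 6 without single libraries, with 1 higher at the adjusted p alone, and the median of -0.63 was -0.51 with a pseudocount of 1. A fit with a replicate block left 19 members called lower in H against NC and changed no call of a named member. The labels do not say whether the numbers pair the libraries. Deviations of libraries with the same number correlated weakly, at 0.05 to 0.09, between NC and H. There each correlated best with its own number, and other numbers gave -0.07 to 0.01. Same-number values were -0.04 to 0.03 between H and HL and -0.02 to 0.02 between NC and HL. Over all tested genes TPM scaling moved the calls in HL against H from 797 lower and 486 higher to 945 and 383. It turned the sign of 6 uncalled differences, those of Fancc and Xrcc3 in H against NC, Rad51b in HL against H, and Fanca, Fancf and Fancm in HL against NC. With 3 libraries a group, differences near the fold threshold are the least settled. Whether depth limited any member was not tested.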
